A study of Mus musculus with 9 samples.

Results

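The columns described here are those of the blood B class that carry the joining chain of antibodies, Jchain, at a level that marks candidate antibody-secreting cells. They were chosen in the deposited table of blood cells as the columns that the submitters' class name calls B-cells-GL7-positive-Alum and in which Jchain made up at least 0.1% of the column's total signal. This gave 191 columns, among 1301 of the B class and 4310 blood columns in all. Jchain, whose product links IgM and IgA into polymers, was thus used to choose them, and every difference between these columns and the other B-class columns is given as a description with no test.

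Antibody-secreting cells (plasmablasts and plasma cells) arise from B cells under the control of Blimp-1 (Prdm1), Irf4 and Xbp1. They turn off much of the B cell programme, expand the endoplasmic reticulum (ER) and devote a large share of their mRNA to immunoglobulin. In blood they are plasmablasts and plasma cells in transit, and the class of the heavy chain they carry (IgM, IgG or IgA) records whether and to what the cell has switched.

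The samples were blood of 9 female 129SvE mice profiled by Seq-Well, a microwell method for single cells: 5 arthritic mice of a rheumatoid arthritis model (mice 1, 3, 4, 5 and 6, with disease stages between 1.5 and 2.5) and 4 healthy mice (mice 1 to 4, disease stage 0). The tissue is labelled both PBMC and blood. Neither the age of the mice nor the way arthritis was induced is stated by the labels. Values are whole-number signal per gene and column. Below, levels are SPM, the signal of a gene per 1000000 of the summed signal of a mouse's columns, and the mouse, not the column, is the replicate. Where a median over columns is given in SPM, each column's own total is used instead.

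Many columns were exact copies of each other. Of the 191 columns, 108 had an exact copy elsewhere among the columns and 91 had that copy in another mouse, although no barcode was shared between members of different mice. The 191 columns held 119 distinct profiles. Of the 25 columns from healthy mice, 17 had a copy among the arthritic mice. The sources used here do not say whether a column holds 1 cell or merged or imputed signal, so heavy-chain class and V segment shares below describe columns and not cells. Results between arthritic and healthy mice are also given without the shared columns. Comparisons of kinds of column within the B class keep them.

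The arthritic mice gave 57, 91, 7, 4 and 7 of the columns (mice 1, 3, 4, 5 and 6), and the healthy mice gave 0, 12, 1 and 12 (mice 1 to 4). The B class itself had 274, 448, 86, 9 and 348 columns in the arthritic mice and 9, 111, 1 and 15 in the healthy mice. Arthritic mice 1 and 3 held most members, and the healthy libraries were small, with 26 to 201 columns of any class. Member columns had a median total signal of 11090.0 (6363 to 20988), against a median of 8481 in the other 1110 B-class columns.

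The Jchain shares fell into separate ranges. In 82 columns Jchain made up between 1.99% and 10.01% of the signal, with a median of 4.67%, and these are called high-Jchain columns below. In the other 109, low-Jchain columns, the median was 0.146% and the highest 0.863%, and 100 of them were under 0.2%. No column lay between 0.863% and 1.99%, and the division at 1% was placed in this gap after it had been seen.

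The 0.1% threshold cut through a continuous part of the distribution. The lowest share inside was 0.1003% and the highest outside was 0.0992%, with 20 columns within 10% above the threshold and 25 within 10% below it. Jchain signal also occurred where no antibody-secreting cell should be. Among columns of the class named CD4 T cells, 26.9% to 57.0% per mouse had some Jchain signal (5 mice with at least 20 such columns), the highest share was 0.106%, and 1 of 441 columns reached the threshold. Median totals there were 7562 to 8997 per mouse. The high-Jchain shares were far above those of the CD4 T columns. In the class named granulocytes the highest share was 3.48%, within the high-Jchain range. There 43 of 1876 columns reached the threshold and 10 reached 1%. Low-Jchain columns, which the 0.1% rule chose for their share, had a median of 0.146%, above the highest CD4 T share of 0.106%. The median shares of the CD4 T columns were 0% to 0.0079% per mouse.

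**Figure D1:**
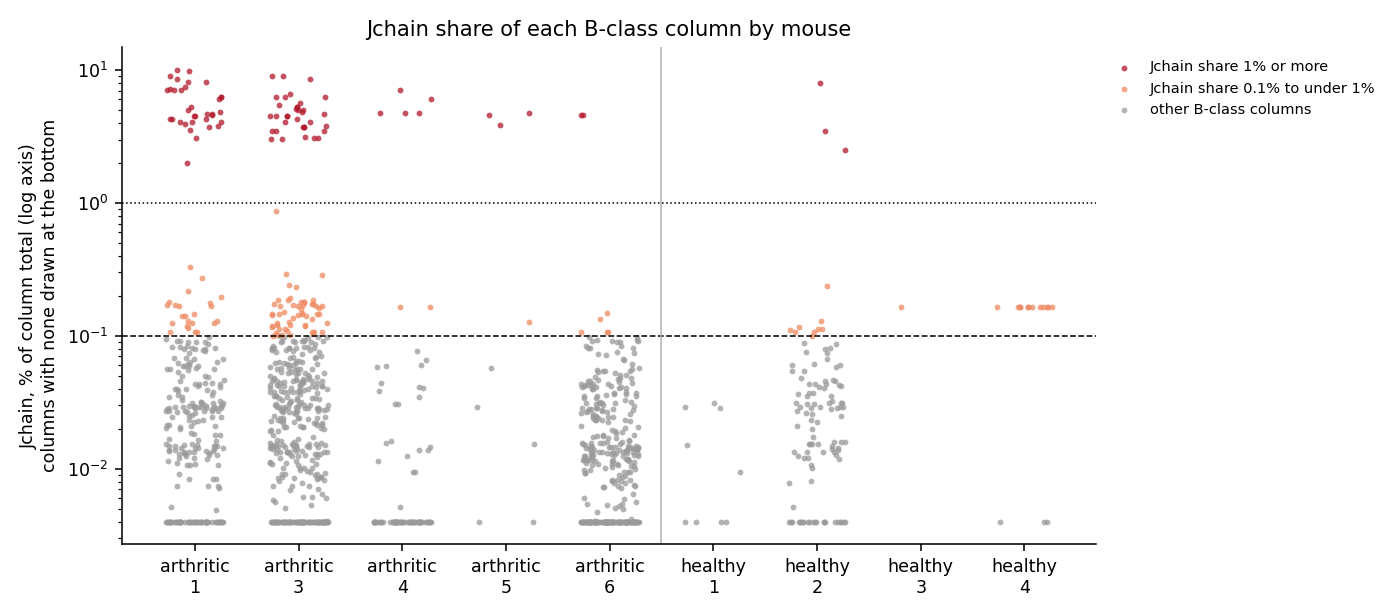
Jchain share of total signal (percent, log axis) in every B-class column, by mouse, arthritic mice on the left and healthy mice on the right. The dashed line is the 0.1% threshold and the dotted line is 1%. The high-Jchain columns stand above an empty range between 0.863% and 1.99%, and only mouse 2 of the healthy mice has any.

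High-Jchain columns came from all 5 arthritic mice, with 34, 35, 5, 3 and 2 columns in mice 1, 3, 4, 5 and 6, and from 1 healthy mouse, mouse 2, with 3. They comprised 42 distinct profiles, of which 19 occurred in more than 1 mouse, and 57 of the 82 columns were identical to a column of another mouse. Without the shared columns, 11, 10, 0, 1 and 1 were left in arthritic mice 1, 3, 4, 5 and 6, and 2 in healthy mouse 2. Gene levels of high-Jchain against other B-class columns below include the shared columns. Agreement between mice there thus rests in part on copies. Low-Jchain columns numbered 23, 56, 2, 1 and 5 in the arthritic mice and 9, 1 and 12 in healthy mice 2, 3 and 4. The 12 low-Jchain columns of healthy mouse 4 were copies of 2 profiles. Hemoglobin genes made up 39.1% to 39.8% of their signal, as they did in the only member column of healthy mouse 3 and in both low-Jchain columns of arthritic mouse 4.

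High-Jchain columns were rich in immunoglobulin RNA. Immunoglobulin genes made up 36.6% of their signal at the median (12.1% to 62.5%), against 1.00% (0.357% to 7.72%) in the low-Jchain columns. Igkc, the kappa light-chain constant region, averaged 148395 ± 56286 SPM in high-Jchain columns and 2004 ± 402 SPM in the other B-class columns of the same 6 mice (SD, n = 6 mice). Each of the 6 mice had at least 74863 SPM of Igkc in its high-Jchain columns.

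Most high-Jchain columns drew their heavy-chain signal from 1 class. Of the 82 columns, 62 took at least 90% of their heavy-chain constant signal from 1 class, as did 33 of the 42 distinct profiles. IgM (Ighm) led 30 columns of 16 profiles, with a median of 99.8% of heavy-chain signal and a lowest value of 99.5%. IgG1 (Ighg1) led another 30 columns of 14 profiles, with a median of 93.8% and a range of 33.1% to 95.04%. Reads of 50 bases from the 3′ end can be split among the closely related IgG genes, so the share of Ighg2b and Ighg2c signal beside Ighg1 is uncertain. IgA (Igha), the class of mucosal secretions, led 19 columns of 10 profiles with a median of 97.9%. Ighg2c led 2 columns and Ighg2b led 1.

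The classes were spread unevenly over the mice. In arthritic mouse 1, Ighm led 13, Ighg1 12, Igha 8 and Ighg2c 1 of the 34 columns. In arthritic mouse 3, Ighm and Ighg1 led 15 each of 35, Igha 3, and Ighg2b and Ighg2c 1 each. Igha led 4 of the 5 columns of arthritic mouse 4, 2 of the 3 columns of arthritic mouse 5 and both columns of arthritic mouse 6. IgA-led columns were thus found in all 5 arthritic mice, but 12 of the 19 had a copy in another mouse, including all 4 of arthritic mouse 4 and both of arthritic mouse 5. Without copies, IgA-led columns were left in arthritic mice 1, 3 and 6 (4, 2 and 1 columns). The 3 columns of healthy mouse 2 were led by Ighm once, at 99.9% of heavy-chain signal, and in the other 2 columns by Ighg1, at 33.1% and 44.1%. With 3 healthy columns in 1 mouse, the lack of an IgA-led column there is not informative about its frequency.

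**Figure D2:**
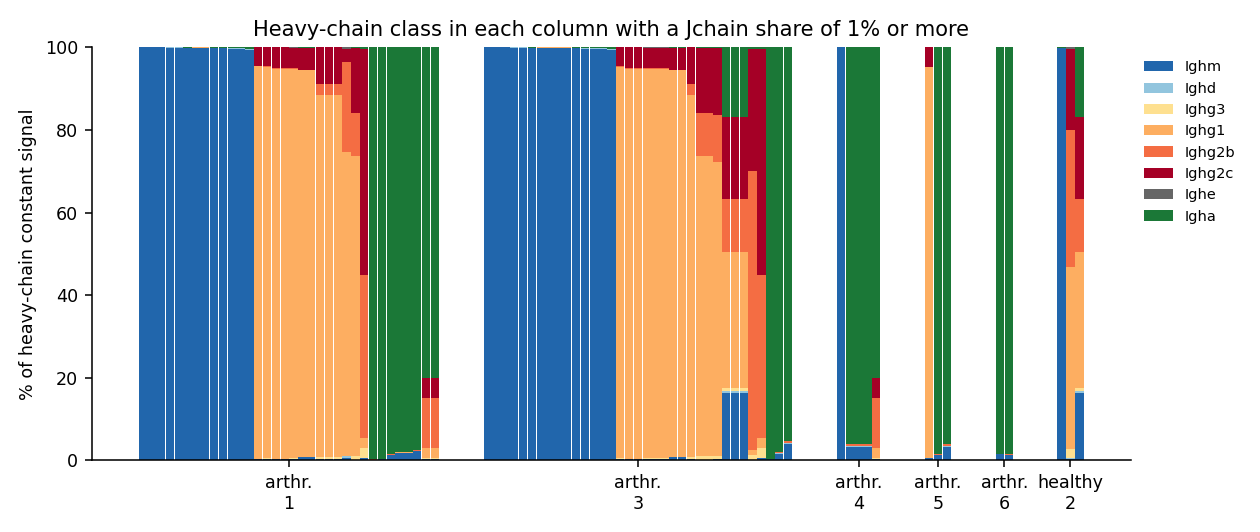
Share of heavy-chain constant signal (percent) by class in each of the 82 high-Jchain columns, 1 bar per column, grouped by mouse with the arthritic mice on the left. IgM-led bars are nearly pure, and arthritic mice 4, 5 and 6 have mostly IgA-led bars. Bars of equal height in different mice include identical columns.

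Jchain and total immunoglobulin differed between these classes within the high-Jchain range. Median Jchain shares were 7.05% in IgA-led, 5.46% in IgM-led and 3.83% in IgG1-led columns. The order of the immunoglobulin share was the reverse, with medians of 26.1% in IgA-led, 35.6% in IgM-led and 52.2% in IgG1-led columns. As a share of the signal outside immunoglobulin genes, the Jchain medians were 9.54%, 9.31% and 7.20% in IgA-led, IgM-led and IgG1-led columns. Jchain also chose these columns. Columns of 1 mouse are not replicates and identical profiles recur, so these medians carry no test.

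The light chain was kappa in most columns. Kappa made up at least 90% of light-chain constant signal in 75 of 82 columns, the remaining 7 lay lower, down to 11.1%, and none was at least 90% lambda. Among V segments, Igkv8-30 led 8 columns of 4 profiles with a median of 79.2% of light-chain V signal. Igkv3-12 led 6 columns of 2 profiles with a median of 66.2%. Igkv4-55 led 4 columns with 70.1% and Iglv2 led 3 with 74.3%, each being copies of 1 profile. Igkv6-15 led the most columns, 13 of 6 profiles, but with a median of only 22.0%.

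Heavy-chain V segments were less dominated by 1 member. Ighv10-1 led 15 columns of 9 profiles in 4 mice with a median of 15.2% of heavy-chain V signal. Ighv1-66 led 10 columns of 5 profiles, with a median of 18.03%, and all 10 were IgA-led and lay in the 5 arthritic mice. Of these 10 columns 7 had a copy in another mouse, among them all 3 of arthritic mouse 4 and both of arthritic mouse 5, so the recurrence over those mice rests on copies. Summed per mouse, Ighv1-66 held 6.22% of heavy-chain V signal in arthritic mouse 1, where it ranked second, and 12.2%, 17.8% and 23.1% in arthritic mice 4, 5 and 6, where it ranked highest. V segments lie at the 5′ end of the transcript and the reads at its 3′ end, and related segments can share reads. V signal was low, at 1.57% to 2.49% of signal per mouse for the heavy chain. The part of read position in this was not tested.

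The regulators of the secretory state were higher in high-Jchain columns than in other B-class columns. Xbp1, the transcription factor that expands the secretory apparatus, had 1629, 1511, 1453, 1401 and 1294 SPM in the high-Jchain columns of arthritic mice 1, 3, 4, 5 and 6 and 1377 SPM in those of healthy mouse 2. In the other B-class columns of the same mice it had 123, 125, 119.8, 136 and 114 SPM, and 91.8 SPM. The ranges did not overlap, and the means of 1444 ± 116 and 118 ± 14.99 SPM (SD, n = 6 mice each) differed by 3.60 on the log2 scale, computed as log2(mean SPM + 1).

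Of all 10248 genes at a mean of 10 SPM or more in either kind of column, 2.86% were higher in the high-Jchain columns of every 1 of the 6 mice and 27.4% were lower in every mouse, with a median log2 difference of -0.87. Part of this shift is arithmetic, because immunoglobulin takes up so much of the signal. Scaled to the signal outside immunoglobulin genes, 5.31% were higher and 17% lower in every mouse, and the median was -0.26. The rule that chose the columns used this contrast, so the counts below are descriptions to be set beside these shares.

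Of 10 measured regulators, 6 were higher in every mouse (Prdm1, Irf4, Xbp1, Pou2af1, Ell2 and Fam46c) and 1, Zbtb20, was lower in every mouse, though not outside immunoglobulin scaling, where 2 mice were higher. Prdm1, which encodes Blimp-1, averaged 75.6 ± 24.0 SPM in high-Jchain and 19.4 ± 12.9 SPM in other columns. Irf4 averaged 132 ± 42.1 and 44.8 ± 14.7 SPM in the same order. Ell2, an elongation factor that favours the secreted form of the heavy chain, averaged 482 ± 120.0 SPM in high-Jchain columns and 97.7 ± 24.1 SPM in the others.

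At the surface, 4 of 16 measured genes were higher in every mouse and 2 were lower. Sdc1, the plasma cell antigen CD138, averaged 70.9 ± 20.1 SPM in high-Jchain columns and 1.36 ± 1.22 SPM in the others. Tnfrsf17, the survival receptor BCMA, averaged 56.9 ± 21.4 SPM and 0.645 ± 0.994 SPM in that order, and Slamf7 averaged 293 ± 64.6 SPM and 45.5 ± 13.6 SPM. The chemokine receptor Cxcr4, which guides plasma cells to bone marrow, was lower in the high-Jchain columns of every mouse (53.0 ± 39.9 SPM against 195 ± 24.5 SPM), as was the interleukin-6 receptor chain Il6ra (14.6 ± 16.2 SPM against 157 ± 39.5 SPM).

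The 12 genes with the largest differences toward high-Jchain columns were Jchain, 5 immunoglobulin constant genes (Igha, Iglc1, Ighg2b, Igkc and Ighm), Fkbp11, the agouti gene a, Plpp5, Slpi, Tnfrsf17 and Sdc1. Slpi, a secreted inhibitor of leukocyte proteases, averaged 1887 ± 1101 SPM in high-Jchain columns and 34.1 ± 31.1 SPM in the others. Plpp5 averaged 181 ± 99.4 SPM and 2.28 ± 2.62 SPM in that order, and the agouti gene a averaged 101 ± 80.5 SPM and 0.474 ± 0.727 SPM. Among genes of the opposite direction, Zfp318, which controls the splicing that yields IgD, was at 0 in the high-Jchain columns of all 6 mice and averaged 95.7 ± 26.3 SPM in the other columns.

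ER folding genes were higher in high-Jchain columns. Of 25 genes for chaperones and folding enzymes, 18 were higher in the high-Jchain columns of every mouse and none was lower in every mouse, with a median log2 difference of 2.09, against -0.87 over all genes. Hsp90b1, the ER chaperone GRP94, had 4949, 7164, 5197, 6447 and 11039.7 SPM in the high-Jchain columns of arthritic mice 1, 3, 4, 5 and 6 and 13373 SPM in those of healthy mouse 2. In the other columns it had 1011, 805, 567, 909.7 and 719 SPM, and 772 SPM. The ranges were far apart, and healthy mouse 2 was the highest of the high-Jchain values.

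Hspa5, the chaperone BiP, averaged 3604 ± 1642 SPM in high-Jchain columns and 1144 ± 207 SPM in the others. Creld2 averaged 843 ± 743 SPM and 39.3 ± 12.1 SPM in that order, with 2254 SPM in the high-Jchain columns of healthy mouse 2. The disulfide isomerase Txndc5 averaged 484 ± 103 SPM and 18.7 ± 10.4 SPM, and Fkbp11, a prolyl isomerase of secretory cells, 204 ± 53.3 SPM and 0.793 ± 1.43 SPM. Canx, the lectin chaperone calnexin, did not separate the columns, with 378 ± 150.2 SPM in high-Jchain and 321 ± 70.4 SPM in other columns.

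The genes that thread proteins into the ER and glycosylate them were higher too. Of 30, 18 were higher in every mouse, none was lower in every mouse, and the median log2 difference was 1.31. Ssr4, a subunit of the translocon-associated complex, averaged 1347 ± 400.3 SPM in high-Jchain columns and 131 ± 36.6 SPM in the others. Sec11c, a catalytic subunit of signal peptidase, averaged 1032 ± 181 SPM and 183 ± 26.7 SPM in that order. Ddost, a subunit of the oligosaccharyltransferase, averaged 327 ± 169 SPM and 40.6 ± 11.8 SPM.

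Of 12 genes of ER-associated degradation, 8 were higher in every mouse and none lower. Herpud1 averaged 393 ± 78.7 SPM in high-Jchain columns and 50.5 ± 16.3 SPM in the others, and Edem1, which marks misfolded glycoproteins for disposal, 299.6 ± 63.4 SPM and 55.4 ± 18.8 SPM. Derl3 was detected unevenly, with 65.5, 90.7, 0, 25.5 and 0 SPM in the high-Jchain columns of arthritic mice 1, 3, 4, 5 and 6 and 150.3 SPM in those of healthy mouse 2, against at most 3.21 SPM in the other columns. Total signal of the high-Jchain columns was 66774, 39246 and 23189 in arthritic mice 4, 5 and 6, so 0 and 25.5 SPM lie at the floor. Traffic from the ER to the Golgi differed less: 4 of 21 genes (Lman1, Kdelr2, Sec31a and Tmed10) were higher in every mouse, with a median of 0.47.

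Promoters of several of these genes hold the ER stress response element, the site through which Atf6 raises chaperone genes together with the factor NF-Y. The element, CCAAT and CCACG with 9 bases of any kind between them, was searched on either strand in the 250 bases upstream of each start in RefSeq's promoters of build GRCm38.p6. It occurred in 37 of 32851 promoters (0.113%) and in 7 of the 20 chaperone genes with a promoter in the table (Hspa5, Hsp90b1, Pdia6, Dnajc3, Creld2, Calr and Canx). It also occurred in 2 of 11 degradation genes (Syvn1 and Derl3), and in none of 24 translocation genes or 18 traffic genes. The related element, ATTGG and CCACG with 1 base between them, was in 10 promoters (0.0304%), among them Herpud1. The octamer motif of immunoglobulin promoters, searched in the same way, was in 526 promoters and in none of these lists. A match describes these letters only, and Canx, which has one, did not separate the columns. The windows below show the element in capitals, with up to 20 bases on each side, for the chaperones Hsp90b1 (chr10:86705618-86705676 and chr10:86705513-86705571, minus strand), Hspa5 (chr2:34772005-34772063, plus strand) and Creld2 (chr15:88819500-88819558, plus strand), and for the degradation genes Derl3 (chr10:75893222-75893280, plus strand) and Herpud1 (chr8:94386357-94386407, plus strand). In Creld2, Derl3 and the Hsp90b1 site nearer to the start the element stands as its reverse complement.
Hsp90b1 farther site: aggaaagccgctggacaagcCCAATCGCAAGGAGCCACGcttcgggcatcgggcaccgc
Hsp90b1 nearer site: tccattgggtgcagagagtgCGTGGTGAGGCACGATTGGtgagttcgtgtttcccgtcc
Hspa5: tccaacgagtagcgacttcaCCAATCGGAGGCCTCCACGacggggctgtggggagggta
Creld2: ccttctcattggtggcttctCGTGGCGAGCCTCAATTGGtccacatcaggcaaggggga
Derl3: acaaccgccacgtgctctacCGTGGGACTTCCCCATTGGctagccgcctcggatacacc
Herpud1: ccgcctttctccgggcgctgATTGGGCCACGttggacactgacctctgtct

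**Figure D3:**
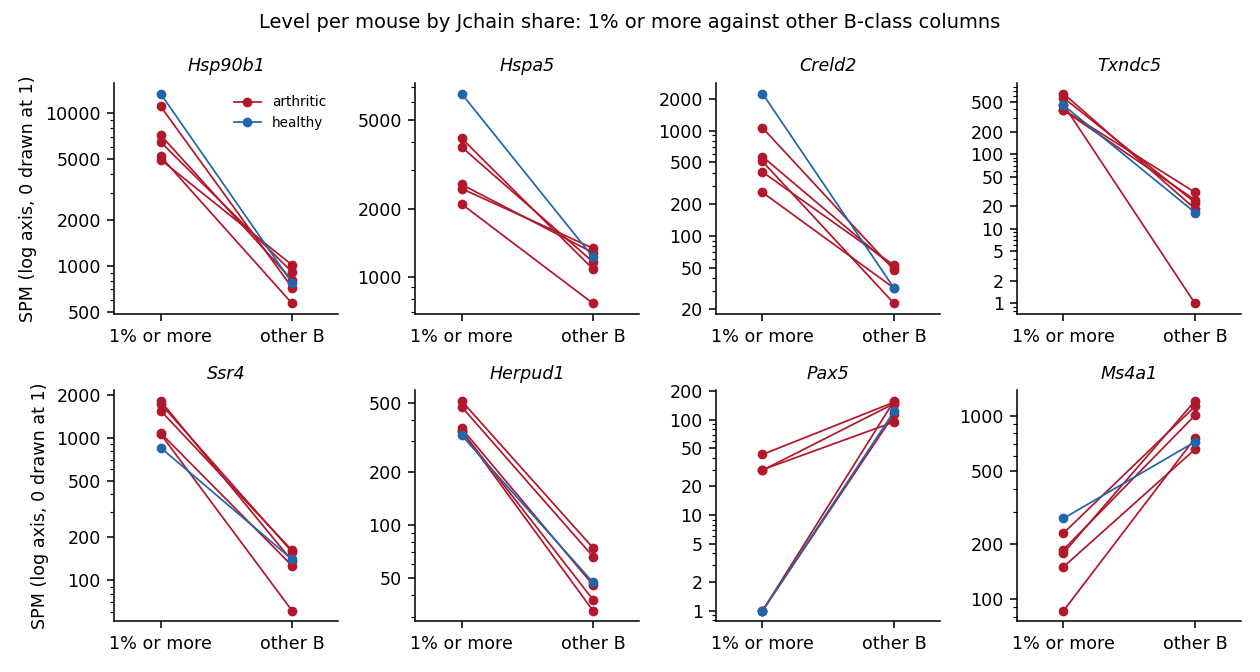
Level (SPM, log axis) of 6 secretory genes and 2 B cell genes in high-Jchain columns (left points) and in other B-class columns (right points), 1 line per mouse, 5 arthritic mice and healthy mouse 2. Every line falls to the right for the secretory genes and rises for Pax5 and Ms4a1.

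Genes of B cell identity were lower. Of 31, 21 were lower in the high-Jchain columns of every mouse and none was higher in every mouse. Scaled to the signal outside immunoglobulin genes, 15 were lower in every mouse. Pax5, the factor that maintains B cell identity, had 29.6, 43.3, 30.0, 0 and 0 SPM in the high-Jchain columns of arthritic mice 1, 3, 4, 5 and 6 and 0 SPM in those of healthy mouse 2, against 94.9 to 157 SPM in the other columns of these mice. The ranges did not overlap. High-Jchain columns of arthritic mice 5 and 6 and healthy mouse 2 held a total signal of only 39246, 23189 and 39932. Their values of 0 thus lie at the floor. Pax5 averaged 17.1 ± 19.4 SPM in high-Jchain and 131 ± 24.9 SPM in other columns, and Ms4a1, which encodes CD20, averaged 184 ± 65.0 SPM and 911 ± 231 SPM in that order.

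Antigen presentation genes followed, with H2-Aa at 329.8 ± 104 SPM in high-Jchain columns and 1391 ± 486 SPM in the others. Cd74, the invariant chain, averaged 2008 ± 227 SPM and 3913 ± 1022 SPM in that order and was lower in all 6 mice, but in 4 of 6 outside immunoglobulin scaling. The signalling chains of the B cell receptor did not separate the columns: Cd79a averaged 215 ± 58.9 SPM in high-Jchain and 207 ± 42.4 SPM in other columns, and Cd79b averaged 320.0 ± 116 SPM and 338 ± 64.5 SPM. Of 8 germinal centre genes at the minimum level, 2 were lower in every mouse and none higher, near the share of 27.4% lower over all genes. Bcl6, the germinal centre repressor, averaged 0.352 ± 0.863 SPM in high-Jchain columns and 28.9 ± 7.91 SPM in the others.

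Of 23 cell cycle genes, 5 were lower in every mouse and none was higher, and outside immunoglobulin scaling 1 of 24 was lower. Mki67 averaged 230.5 ± 218 SPM in high-Jchain columns and 209.8 ± 129 SPM in the others, and it was highest in healthy mouse 2, at 651 SPM. Within the high-Jchain columns the median Mki67 level was 425 SPM in IgG1-led, 146 SPM in IgM-led and 85.9 SPM in IgA-led columns. Other cell cycle genes took other orders. In the same order of classes, Hmgb2 had medians of 226, 147 and 344 SPM, Pcna 0, 78.3 and 0 SPM, and Top2a 81.3, 0 and 0 SPM. Totals of the high-Jchain columns were 10226 to 18154. The Pcna and Top2a medians above 0, and that of Mki67 in IgA-led columns, thus stand for about 1 unit of signal. Columns of 1 class share profiles and mice, and these differences were not tested. Of 25 interferon response genes, 7 were lower in every mouse and 1, Isg20, was higher, and outside immunoglobulin scaling 5 of 26 were lower and 4 higher. Of 10 genes of amino acid supply, the transporter gene Slc7a5 and Asns were higher in every mouse and 3 were lower, and outside immunoglobulin scaling 4 of 11 were higher in every mouse and 0 lower. Over all genes 27.4% were lower and 2.86% higher in every mouse, and outside immunoglobulin scaling 17% and 5.31%. On the scale of all signal, the counts of lower genes in these lists were thus near the share of all genes.

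Markers of other blood cells moved in the same contrast. All 8 T cell markers were lower in the high-Jchain columns of every mouse, with summed levels of 0 to 225 SPM, against 1030 to 1549 SPM in the other columns of the same mice. Of 10 neutrophil markers, 6 were higher in every mouse, with summed levels of 4508 to 11773 SPM in high-Jchain columns and 2108 to 4065 SPM in the others. S100a8 alone averaged 5124 ± 1962 SPM in high-Jchain columns and 2005 ± 466 SPM in the others. At most 3 of the 10 neutrophil markers were at 0 in the high-Jchain columns of any mouse. Their part in the differences above was not tested.

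In the low-Jchain columns few of these genes differed in every mouse. Against the other B-class columns of 7 mice (the same 6 and healthy mouse 4), 0.688% of 10168 genes were higher in every mouse and 2.54% were lower. Of the 24 folding genes at the minimum level 1, Calr, was higher in every mouse, and of 29 translocation genes 1, Ddost, was higher and 1, Sec62, lower. Xbp1 averaged 203 ± 98.4 SPM in low-Jchain columns and 109.5 ± 26.9 SPM in the others and was higher in 5 of 7 mice. Hspa5 averaged 1113 ± 523 SPM in low-Jchain columns and 1082 ± 249 SPM in the others. Ms4a1 averaged 924 ± 380.3 SPM and 822 ± 317 SPM in that order.

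Low-Jchain columns nevertheless carried somewhat more immunoglobulin RNA. Igkc averaged 3642 ± 1621 SPM in low-Jchain columns and 1819.5 ± 610.3 SPM in the others, and Igha averaged 442 ± 225 SPM and 43.3 ± 13.5 SPM in that order. Both were higher in all 7 mice. Of 109 low-Jchain columns, 12 took at least 90% of heavy-chain signal from 1 class, and the leading class was Ighm in 55, Igha in 27 and Ighg1 in 21. Their heavy-chain signal was low, with a median of 22 per column (7 to 496), so the leading class often rests on few units. The 12 columns of healthy mouse 4, copies of 2 profiles, had a heavy-chain signal of 11 each, with 54.5% from the leading class. Of 18 markers of antibody-secreting cells, 16 were higher in every mouse in high-Jchain columns, and of the 14 at the minimum level 2 (Jchain and Igkc) were in low-Jchain columns. Jchain, which chose and divided the columns, is 1 of the markers in each count. The label of an antibody-secreting cell is used here for the 82 high-Jchain columns only, and the 109 low-Jchain columns are named by the rule alone. Taking all 191 columns together, 0.747% of genes were higher and 6.91% lower in every mouse than in the other B-class columns.

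**Figure D4:**
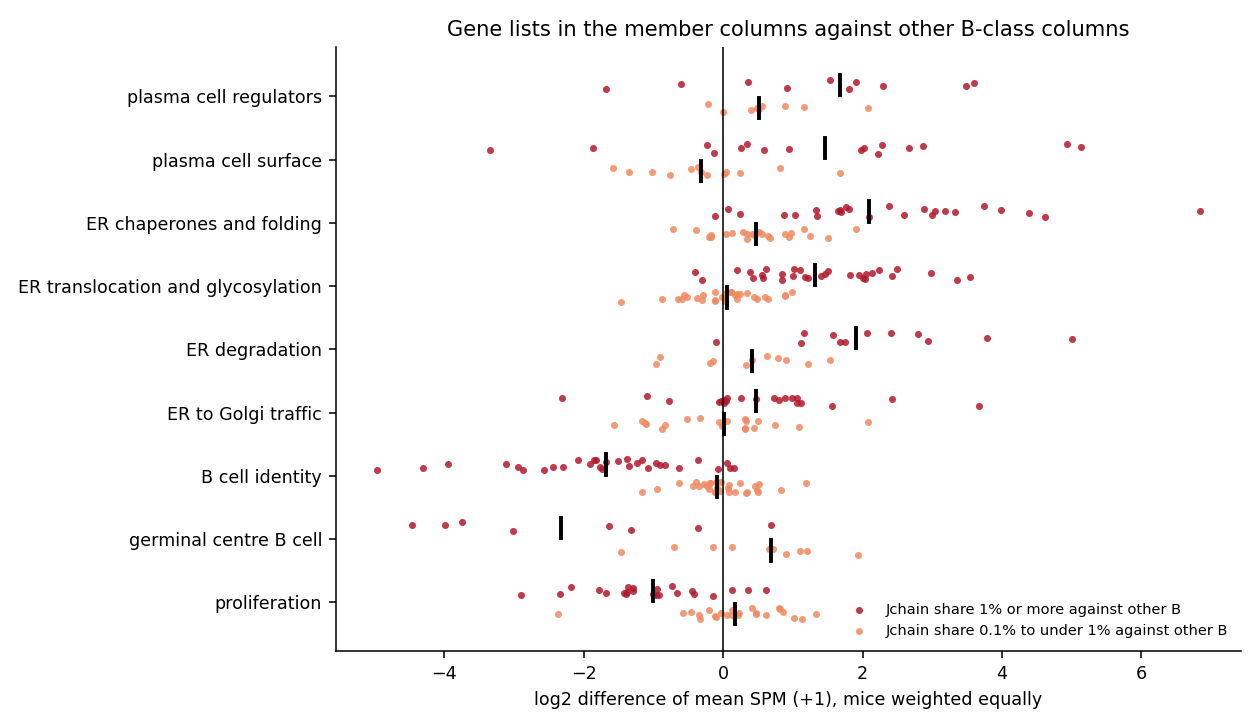
Log2 difference of mean SPM (+1) between member columns and other B-class columns for each gene of 9 lists, high-Jchain columns in dark red (6 mice) and low-Jchain columns in orange (7 mice), with list medians as black bars. In high-Jchain columns most folding, translocation and degradation genes lie to the right and most B cell identity genes to the left, while the medians of the low-Jchain points lie between -0.31 and 0.69. A gene is drawn where either kind reached 10 SPM.

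Between conditions, the share of B-class columns at the 0.1% threshold did not separate arthritic from healthy mice. It was 20.8%, 20.3%, 8.14%, 44.4% and 2.01% in arthritic mice 1, 3, 4, 5 and 6, against 0%, 10.8% and 80.0% in healthy mice 1, 2 and 4, the mice with at least 5 B-class columns. The groups overlapped. The means of 19.1 ± 16.3% (SD, n = 5) and 30.3 ± 43.4% (SD, n = 3) differed by -11.1 percentage points (two-sided exact permutation test over mice, p = 0.643, smallest possible 0.0357). The healthy mean rests on mouse 4, with its 12 copies of 2 hemoglobin-rich profiles: without it the difference was 13.7.

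High-Jchain columns alone gave the other direction. They made up 12.4%, 7.81%, 5.81%, 33.3% and 0.575% of B-class columns in arthritic mice 1, 3, 4, 5 and 6, against 0%, 2.70% and 0% in healthy mice 1, 2 and 4. Arthritic mouse 6 lay below healthy mouse 2. The means were 11.99 ± 12.7% and 0.901 ± 1.56% (difference 11.1, exact permutation p = 0.0714), a comparison added after the gap in the shares was seen. The value of arthritic mouse 5 is 3 of 9 columns, and without this mouse the difference was 5.75 (exact permutation p = 0.114). Without columns identical to another mouse's, the shares were 5.37%, 2.76%, 0%, 16.7% and 0.318% in arthritic mice 1, 3, 4, 5 and 6, against 0% and 2.11% in healthy mice 1 and 2, a difference of 3.97 (exact permutation p = 0.476). The healthy mice had 9, 111 and 15 B-class columns, so a low share would not be detectable in mice 1 and 4.

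Of all blood columns, members made up 5.55%, 9.44%, 0.971%, 0.797% and 0.882% in arthritic mice 1, 3, 4, 5 and 6, against 0%, 5.97%, 3.85% and 26.7% in healthy mice 1 to 4. The difference of means was -5.59 percentage points (two-sided exact permutation test, p = 0.524, smallest possible 0.0159), and 0.256 without healthy mouse 4. For high-Jchain columns the values were 3.31%, 3.63%, 0.693%, 0.598% and 0.252% in the arthritic mice and 0%, 1.49%, 0% and 0% in the healthy mice (difference 1.32, exact permutation p = 0.206). With columns identical to another mouse's not counted as high-Jchain, that difference was 0.238 (exact permutation p = 0.302). Without healthy mouse 2, which held every healthy high-Jchain column, the difference of 1.32 became 1.70. All healthy mice left were then at 0% and all arthritic mice above it. The smallest p possible there was thus fixed in advance (exact permutation p = 0.0357) and is no support for a difference. Healthy mice 1, 3 and 4 had 30, 26 and 45 columns of any class, so a low share would not be detectable in them.

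Gene levels between conditions were compared over the summed member columns of the mice with at least 5 of them, arthritic mice 1, 3, 4 and 6 and healthy mice 2 and 4. Of 10535 genes tested, 7 passed an adjusted p of 0.05 (0.0664%), all higher in arthritic mice (limma, Benjamini-Hochberg). All 7 were immunoglobulin genes: Igha and the V segments Igkv6-32, Igkv14-111, Ighv3-8, Ighv1-85, Igkv3-12 and Igkv16-104. At an unadjusted p under 0.05, 953 genes (9.05%) were higher and 0 (0%) lower, and the median log2 difference over all genes was 1.19.

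Igha had 22371, 6027, 44330 and 13696 TMM-scaled SPM in the member columns of arthritic mice 1, 3, 4 and 6, against 1525 and 429 in those of healthy mice 2 and 4. The groups did not overlap, and the log2 difference was 4.38 ± 0.67 (SE; limma adjusted p = 0.0383). Every member column of healthy mouse 4 had a copy in another mouse, as had every member column of arthritic mouse 4. The test treats the mice as independent, which these copies are not. Igkv6-32 had 557, 322, 1537 and 524 TMM-scaled SPM in the arthritic mice, against 6.60 and 0 in the healthy mice (limma adjusted p = 0.0155). Igkv3-12 had 8906, 1611, 2146 and 71.4 in the arthritic mice and was listed at 0 in both healthy mice (limma adjusted p = 0.0156). The other 4 V segments (Igkv14-111, Ighv3-8, Ighv1-85 and Igkv16-104) had at least 119 in each arthritic mouse and at most 6.60 in the healthy mice, with limma adjusted p between 0.0155 and 0.0491. Each V segment named here was under the filter of 10 SPM in both healthy mice. They entered the test only through the arthritic mice, so their calls add no support beyond these levels.

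The make-up of the summed columns moved with this contrast. High-Jchain columns were 34 of 57, 35 of 91, 5 of 7 and 2 of 7 members in arthritic mice 1, 3, 4 and 6, against 3 of 12 and 0 of 12 in healthy mice 2 and 4. Hemoglobin took 0.452%, 0.373%, 9.24% and 0.266% of signal in those arthritic mice and 0.114% and 39.7% in those healthy mice. Neutrophil markers summed to 6266, 11950.5, 8333 and 6506 SPM in the arthritic mice, with at most 1 of 10 at 0, and to 3699.9 and 403 SPM in the healthy mice, with 3 and 8 at 0. Over low-Jchain columns alone no gene was called by limma, and Igha differed by 0.23 on the log2 scale (limma adjusted p = 0.951). Over high-Jchain columns alone, with a minimum of 1 column, the healthy group was 1 mouse with 3 columns and had no spread of its own. The Igha difference there was 2.68 on the log2 scale, given without a test. Without columns identical to another mouse's no gene was called, and the Igha difference was 5.31 with a limma adjusted p of 0.452.

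No secretory gene was called between conditions. Among 25 folding genes 0 passed the adjusted threshold and 13 were higher at an unadjusted p under 0.05, with a median log2 difference of 1.75, against 1.19 over all genes. Among 30 translocation genes 17 were higher at that level, among 12 degradation genes 4, and among 31 B cell identity genes 2, and none was called. Over all genes tested 9.05% were higher at that level, and among 10 neutrophil markers 7 were. Xbp1 had 1724, 976, 1426 and 405 TMM-scaled SPM in arthritic mice 1, 3, 4 and 6, against 422 and 215 in healthy mice 2 and 4 (limma adjusted p = 0.542). Arthritic mouse 6 lay below healthy mouse 2. Ighm had 39669, 23944, 17020 and 547 in the arthritic mice, against 13413 and 167 in the healthy mice (limma adjusted p = 0.609), and Ighg1 had 62313, 28326, 402 and 428, against 3782 and 0 (limma adjusted p = 0.542).

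**Figure D5:**
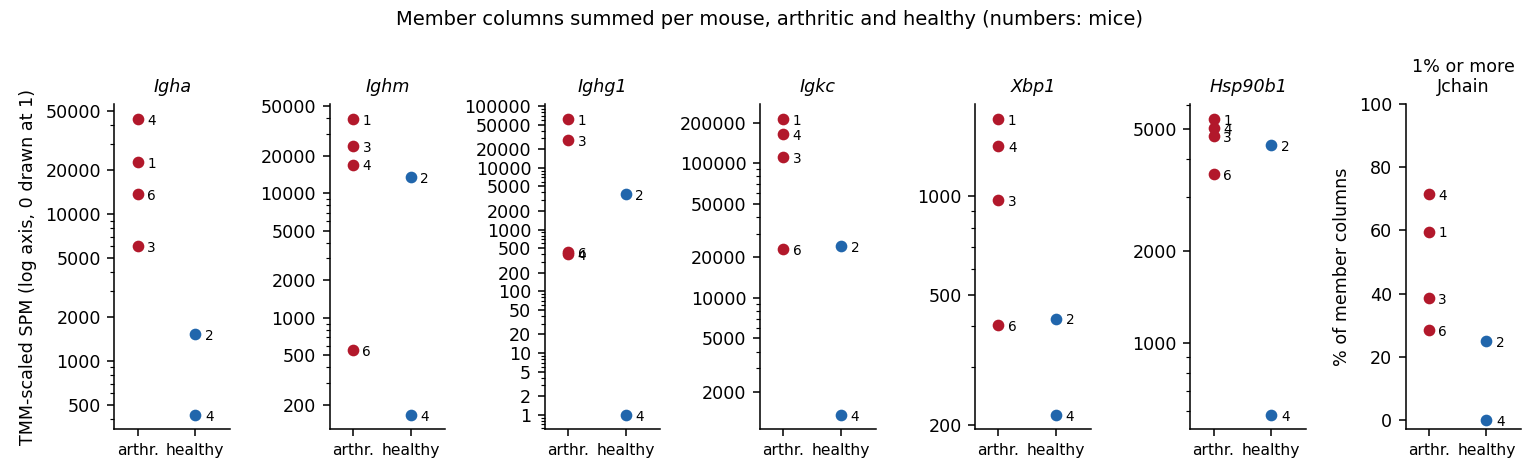
TMM-scaled SPM (log axis) of 6 genes in the summed member columns of arthritic mice 1, 3, 4 and 6 (red, left) and healthy mice 2 and 4 (blue, right), and the percentage of each mouse's members that are high-Jchain columns (rightmost panel). Igha is the only 1 of the 6 genes past the threshold, and healthy mouse 4, which has no high-Jchain column, is the lowest point in each panel.

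Among the genes lower in arthritic mice, those with the smallest p included Fam213a, Dock11, Dnah8 and Usp37, with unadjusted p of 0.0709 to 0.12 and adjusted p of 0.561 to 0.609 (limma). In the other B-class columns, with 5 arthritic and 2 healthy mice, 0 of 10720 genes were called (0%) and 286 had an unadjusted p under 0.05 (limma). The smallest p there belonged to Etaa1os, Tiparp, Ighv5-6, Pglyrp1 and Bax among the higher genes and to Atp10d, Mark3, Iqgap2, Mphosph9 and C2cd5 among the lower ones, at an adjusted p of 0.993 each. With the minimum of 5 columns only 1 healthy mouse was left for both kinds of column, so a minimum of 1 was used (5 arthritic and 2 healthy mice). A test of whether the arthritic-to-healthy difference itself differed between member and other columns called 0 of 12129 genes (0%), with 765 at an unadjusted p under 0.05 (limma). Its smallest p belonged to Rnu1a1, Ifitm6, Igkv4-57-1, Igkv6-32 and Haus1 among the positive differences and to Esr1, Fdx1l, Nav2, Slc36a4 and Nlrc3 among the negative ones, with limma adjusted p of 0.557 and 0.670. For Igha that difference of differences was 4.51 on the log2 scale, with a limma adjusted p of 0.670.

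For measures per mouse, the design of 4 against 2 mice allows no p below 0.133, so none of the 11 could pass the threshold. The immunoglobulin share of member signal was 30.9%, 19.5%, 25.1% and 6.56% in arthritic mice 1, 3, 4 and 6, against 8.54% and 0.491% in healthy mice 2 and 4, with means of 20.5 ± 10.4% and 4.52 ± 5.69% (SD; exact permutation p = 0.267). Without columns identical to another mouse's, it averaged 11.7 ± 8.28% in 3 arthritic mice (SD) and was 7.69% in healthy mouse 2, the only healthy mouse left (exact permutation p = 1.0). The lambda share of light-chain constant signal was 5.91%, 12.7%, 3.06% and 9.73% in the arthritic mice, against 47.1% and 31.7% in the healthy mice (exact permutation p = 0.133, adjusted over 11 measures 0.489). The groups did not overlap for the lambda share, nor for the share of the largest light-chain V segment (15.1% to 25.9% in the arthritic mice, against 26.1% and 31.5% in the healthy mice, exact permutation p = 0.133). Without columns identical to another mouse's, the lambda share was 6.88 ± 4.07% in 3 arthritic mice (SD) and 7.66% in healthy mouse 2 (exact permutation p = 1.0, smallest possible 0.5). The difference for the largest light-chain V segment turned round there, with 18.2% in the arthritic mice and 10.9% in healthy mouse 2. In healthy mouse 2 the leading light-chain V segment of high-Jchain columns was Iglv1, with 33.9% of light-chain V signal, and in healthy mouse 4 the lambda share rests on 2 profiles.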

How the data were processed

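The deposited blood table holds whole-number signal per gene and column. Per the labels' protocols, libraries were made by Seq-Well, with 50 bases of read 2 starting at the polyA end, and the Drop-seq core computational protocol was followed. The build was GRCm38.p5, per the submitters' processing notes. No aligner or method of calling cell classes is named there. Because many deposited columns were identical, the signal was not treated as counts of separate cells, and limma with a trend replaced the count test that had been planned. The joint table was not used, because no blood sample has a column in it. Of the blood table, 692 columns of other classes, or of classes with under 20 columns in a mouse, were not read beyond their names.

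The members, lists and tests were chosen with earlier results of these data known. Signal was summed per mouse and divided by its total (SPM). For tests it was scaled with TMM factors, kept at 10 SPM in at least the number of mice of the smaller group, and taken as log2(SPM + 1) (R 4.3.3, limma 3.58.1), with p-values adjusted over all genes tested. Mice with at least 5 columns entered a fit, except in the difference of differences, where the minimum was 1. Shares and measures were compared by two-sided exact permutation over mice (Python 3.11.15, numpy 2.4.6). All p-values measure the spread between these mice only. Mouse numbers did not pair the groups: deviations of same-numbered mice correlated at -0.009, -0.089 and 0.166 over 9197 genes. Summed members held 9097 to 1057700 signal per mouse. No counting interval was given and no doublet caller was run, because the signal is not shown to count molecules of separate cells. Genes were named by the 12 largest log2 differences per direction that held in every mouse with both kinds of column, at a mean of at least 50 SPM, with V segments and unnamed models left out, and from the lists. Between conditions, called genes were named, or else the 5 smallest p per direction. Some genes that these rules name are not reported here. The code was tested on simulated data.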

Additional observations from a re-analysis of the deposited data

Results flagged for a closer look

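In each of 24 groups of 4 or 5 mice, the highest and lowest values were set against the others by their gap over the range, and chance flags about 1 in 20 groups. Among the healthy mice, mouse 2 stood apart with 1.493% of all columns at a Jchain share of 1% or more, and the other 3 healthy mice had none. Those 3 mice had 30, 26 and 45 columns of any class, against 201 in mouse 2. With their values tied, the gap is the whole range. Among the arthritic mice, mouse 4 stood apart with a hemoglobin share of 9.242% in its member columns, and mouse 6 with a mitochondrial share of 10.09%. Arthritic mice 1, 3 and 6 had hemoglobin shares of 0.452%, 0.373% and 0.266%.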

How the results depend on the processing

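The share of B-class columns at the Jchain threshold (arthritic minus healthy, -11.1 percentage points) turned to 13.7 without healthy mouse 4, to 11.1 for columns at 1% or more, to 11.2 at a threshold of 0.2%, to 0.822 with identical columns counted once and to 8.61 without columns shared between mice. Leaving out 1 mouse gave -26.3 to 13.7. The share of all columns (-5.59) turned to 0.256 without healthy mouse 4, to 1.32 at 1% or more, to 1.36 at 0.2% and to 0.940 without shared columns, with -8.63 to 0.256 over single mice left out. For high-Jchain columns, leaving out 1 mouse gave 5.75 to 13.94 for the share of B-class columns. For the share of all columns it gave 0.840 to 1.697. The highest value, without healthy mouse 2, left only healthy mice at 0%, so that it passed the threshold was fixed in advance. With identical columns counted once the high-Jchain differences were 10.02 and 0.904, and without shared columns 3.97 and 0.238. As a replicate block over shared mouse numbers the differences were -25.5 and -4.85 (exact permutation p of 1 each). No paired analysis was possible for the gene tests because fewer than 2 mouse numbers occurred in both groups of the fit, and the DESeq2 test was not run because the signal is not counts.

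The 7 called genes became 0 at a threshold of 0.05% or without shared columns, 2 with identical columns counted once, 235 with no filter, 3 with a filter of 20 SPM, 17 with a pseudocount of 5, and 17, 30 and 450 with a minimum of 2, 1 and 10 columns. Low-Jchain columns alone gave 0 and high-Jchain columns alone, with the minimum of columns lowered to 1 as well, 290, with 1 healthy mouse. Where 1 healthy mouse was left (also with identical columns counted once, or without healthy mouse 2 or 4), it is assumed to vary like the arthritic mice. Leaving out 1 mouse gave 0 (arthritic mouse 4) to 2904 (healthy mouse 2), with 3, 2 and 5 without arthritic mouse 1, arthritic mouse 6 and healthy mouse 4. Without healthy mouse 2, the difference of differences called 1590 genes. At 0.2% the gene test could not be fitted. Igha passed in 9 of 20 alternatives, with log2 differences of 0.23 to 5.31, all positive, and limma adjusted p of up to 0.983. Some of the 20 alternatives had 1 healthy mouse, and the minimum of 10 columns left 2 mice in each group. Igkv16-104 turned to -0.34 in low-Jchain columns alone. The causes were not tested. The other B-class columns gave 0 calls in all 17 alternatives.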

Other observations

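Receptors that direct antibody-secreting cells to tissues had signal in different numbers of high-Jchain columns of each heavy-chain class, at low signals per column. Ccr10, the receptor for a mucosal chemokine, had signal in 9 of 19 IgA-led columns (5 of 10 profiles, 3 mice), 0 of 30 IgM-led and 0 of 30 IgG1-led columns, and its highest signal was 2. Ccr9, which guides cells to the small intestine, had signal in 9 of 19 IgA-led, 0 of 30 IgM-led and 4 of 30 IgG1-led columns. Itgb7, the integrin chain that binds the gut addressin, had signal in 15 of 19 IgA-led, 2 of 30 IgM-led and 20 of 30 IgG1-led columns. Itga4, the partner chain of Itgb7, had signal in 17 of 19 IgA-led, 22 of 30 IgM-led and 30 of 30 IgG1-led columns, with a highest signal of 6. Cxcr4 had signal in 7 of 19, 16 of 30 and 26 of 30 columns in that order. Tnfrsf17 had signal in 19 of 19 IgA-led, 11 of 30 IgM-led and 8 of 30 IgG1-led columns. Epcam and Cd93 had none in the 19 IgA-led columns, against 15 and 17 of 30 IgM-led and 13 and 10 of 30 IgG1-led columns. Ly6a had median levels of 265 SPM in IgA-led, 767 SPM in IgM-led and 331 SPM in IgG1-led columns. Columns of 1 class share profiles and mice, and these differences were not tested.

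Antibody genes were also high in a few columns of another class. Of 1876 columns of the class named granulocytes (mice with at least 20 such columns), 43 reached the 0.1% Jchain threshold and 10, of 5 profiles, reached 1%, in arthritic mice 1, 3 and 5 (5, 3 and 2 columns). Their median levels were 23083 SPM for Jchain, 79580.1 SPM for Igkc, 1230 SPM for Xbp1 and 80317 SPM for S100a8. The 82 high-Jchain columns of the B class had medians of 46660 SPM for Jchain, 171821 SPM for Igkc, 1515 SPM for Xbp1 and 3504 SPM for S100a8. The granulocyte columns under 1% Jchain had a median Igkc level of 286 SPM and a median S100a8 level of 52766 SPM.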
